A study of Homo sapiens with 6 samples.

Results

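The genes described are A2M and PZP, the plasminogen activators PLAU and PLAT with the receptor PLAUR, the serpins SERPINA1 and SERPINE2, and the metalloproteinase inhibitors TIMP1 and TIMP2. These 9 genes, of 58174 in the table, were a group chosen by their mean expression in the same si-NC and si-FTO groups in which they are described here. Their differences are therefore given as a description, with no test, and nothing is supported with them. Each of the 9 identifiers was found in the table.

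The study sequenced RNA of AGS, an established line of human gastric adenocarcinoma cells, after knockdown of FTO, an enzyme that removes methyl groups from adenosines in RNA. The 3 si-NC libraries came from cells given a control siRNA and carry the genotype label wild type, and the 3 si-FTO libraries carry the genotype label FTO-/-, although the study describes siRNA and not a knockout. All 6 libraries are labelled AGS and Stomach. The values are TPM, a level per transcript length scaled to the same total in each library, given as the authors' mean of each group. The means carry no error between libraries, so no test was made from them and no p-value is given, and the sequencing depth behind a mean is unknown.

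Plasminogen is a circulating zymogen that the urokinase PLAU and the tissue activator PLAT turn into plasmin, a protease of fibrin and extracellular matrix. Urokinase acts at the cell surface, bound to its receptor PLAUR, and serpins such as SERPINE2 inactivate both activators. A2M and PZP are macroglobulins that entrap proteases of many kinds and are then cleared through the receptor LRP1, while TIMPs inhibit the matrix metalloproteinases, and in the body the liver is a main source of circulating A2M and SERPINA1.

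Differences are log2 ratios of the si-FTO mean over the si-NC mean, after 1 TPM was added to each, which understates the difference of weakly expressed genes. A gene was compared if its mean was at least 0.5 TPM in at least 1 group, and it was called higher or lower where that ratio reached 1 in either direction. FTO itself was listed at 33.1 TPM in si-NC against 7.27 TPM in si-FTO, with a log2 ratio of -2.05, so its mean went with the labels. Its level in si-FTO was not 0. Where a pair of values is given with no group names, the si-NC mean comes before the si-FTO mean.

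Of the 9 genes, 8 were compared, 6 were called higher in si-FTO and 1 was called lower. Over all 20493 compared genes, 11.4% were called higher and 17% were called lower, and because the same means chose the 9 genes nothing is read from the contrast. These shares stand for 2340 higher and 3492 lower genes, against 2803 and 2902 after quantile normalization. A2M and PZP passed the minimum through si-FTO alone. SERPINE2 was compared but lay between the thresholds. SERPINA1 was under 0.5 TPM in both groups and was not compared, so the 8 genes are not the whole group. The means of bulk RNA cannot tell fewer cells of a type from less RNA per cell. The median log2 ratio of all compared genes was -0.20, and relative to that median A2M stood at 11.91, PLAUR at 1.62, SERPINE2 at -0.37 and PLAT at -3.82.

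**Figure D1:**
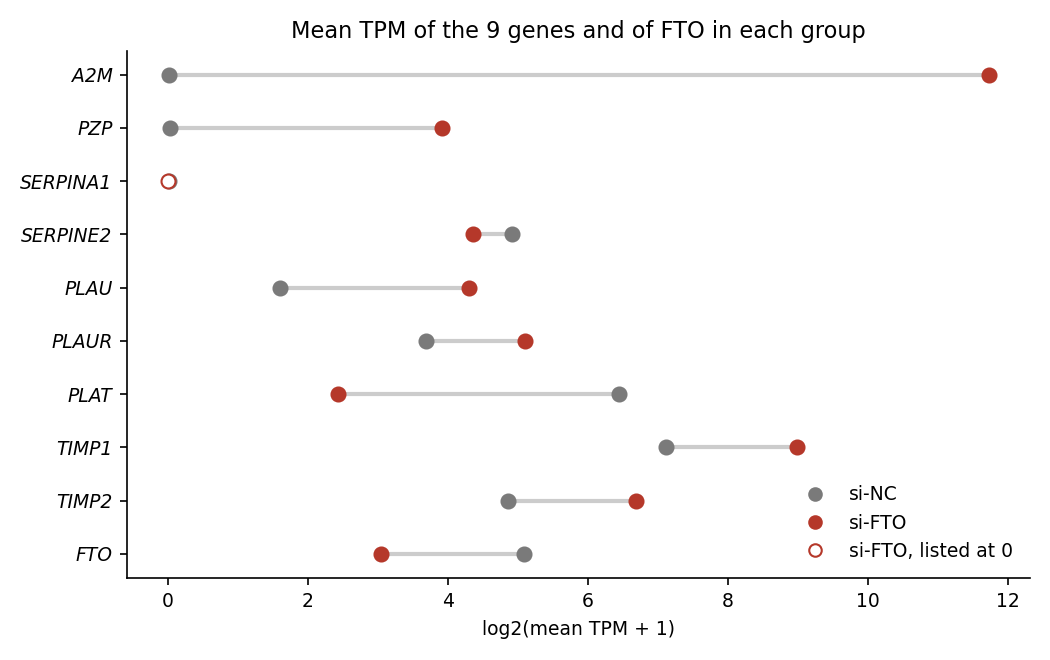
Mean TPM of the 9 genes and of FTO, plotted as log2(mean TPM + 1), with 1 point for each group mean and a line joining the groups. A2M spans the plot from near 0 in si-NC to 3394 TPM in si-FTO, PLAT and FTO run the other way, and the open point marks SERPINA1, listed at 0 in si-FTO.

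The labelled tissue was checked against its markers. Of 18 markers of gastric epithelium, 17 were under 0.5 TPM in each group, and 7 of them, among them GKN1, GKN2, TFF1, PGC, LIPF and ATP4B, were listed at 0 in both groups. CLDN18 was the most abundant of them, with 0.627 TPM in si-NC against 0.759 TPM in si-FTO. The summed level of the list was 0.929 TPM in the si-NC mean and 1.25 TPM in the si-FTO mean, so markers of differentiated stomach were absent or nearly so from both groups.

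A2M was listed at 0.0135 TPM in si-NC against 3394 TPM in si-FTO. Its log2 ratio of 11.71 ranked 1 among the 20493 compared genes with 1 TPM added. The rank was 2 under either scaling alternative, quantile or median-ratio, and 31 with 0.0001 kept as a value and no pseudocount. In si-FTO it held rank 26 by level and 0.339% of all TPM, close to the level of the glycolytic enzyme ENO1, to which its ratio was 0.938. In si-NC it held rank 19998. The gene lies on chr12:9220260-9268825 of GRCh37, on the minus strand.

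PZP, the pregnancy zone protein, is the closest relative of A2M and its neighbour, at chr12:9301436-9360991 on the same strand. It was listed at 0.0160 TPM in si-NC against 14.1 TPM in si-FTO, with a log2 ratio of 3.90 that was 6.94 at a pseudocount of 0.1. A2M was thus 240.4 times as abundant as PZP in si-FTO. In si-NC the means of both genes were near 0.

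Because these paralogs resemble each other, their reference transcripts were compared. The coding sequences have 4425 bases in A2M-201 and 4449 bases in PZP-201, and 79.8% of the 4399 aligned bases were identical. The longest stretch the coding sequences share without a difference has 100 bases. Of all 50-base words of the annotated PZP transcripts, 1.97% also occurred in A2M transcripts. The paper names RSEM for the quantification and the submitters' notes name HISAT2. Neither says how reads from such stretches were divided, so at a ratio of 240.4 between the genes the level of PZP in si-FTO is uncertain.

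The coding bases around the internal thioester are shown so that a shared stretch of the paralogs can be seen. The thioester, formed within the protein, can bond to the trapped protease, and its 15 coding bases lie in exon 24 of 36 in both genes. Each window has 87 bases of the coding strand, from the GENCODE transcripts on GRCh37. The A2M window is chr12:9232305-9232391 and the PZP window is chr12:9312980-9313066, both on the minus strand. Capitals mark the 9 positions at which the windows differ, 1 of them within the thioester codons, and the remaining 78 are shared.
A2M: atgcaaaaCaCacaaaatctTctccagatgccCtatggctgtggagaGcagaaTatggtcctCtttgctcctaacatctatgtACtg
PZP: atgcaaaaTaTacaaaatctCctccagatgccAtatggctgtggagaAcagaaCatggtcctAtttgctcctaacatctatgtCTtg

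The macroglobulin family includes complement components that carry the same fold. Of 9 family genes, 7 were compared, 6 were called higher and 0 lower, with a median log2 ratio of 4.85. The 6 include A2M and PZP, which were chosen by these same means and passed the minimum through si-FTO alone. The share called higher was 85.7%, against 11.4% of all compared genes. The median is the value of C4A, which is itself uncertain, so nothing is read from this count or median. C3, the central complement component, was listed at 1.89 TPM in the si-NC mean and 272 TPM in the si-FTO mean, so that the log2 ratio was 6.56. C4A stood at 1.23 TPM in si-NC against 63.2 TPM in si-FTO. C4B stood at 1.04 TPM and 84.0 TPM. C4A and C4B are near-identical copies, with 94.5% of the 50-base words of C4A transcripts also found in C4B, so their separate values are uncertain, and their sum was 2.27 TPM in si-NC against 147 TPM in si-FTO. CD109, a membrane-anchored member, had 3.46 TPM in the si-NC mean and 8.18 TPM in the si-FTO mean, with a log2 ratio of 1.04 just past the threshold. CPAMD8 lay between the thresholds at 0.625 TPM and 0.305 TPM, and A2ML1 and C5 were under 0.5 TPM in both groups. A2M supplied 3394 of the family's 3836 TPM in si-FTO.

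Genes around A2M were compared by position, as 42 other genes of the table lie within 500 kb of it. Of these, 17 were compared, 5 were called higher and 1 lower, and their median log2 ratio was -0.10. Over all compared genes, 11.4% were called higher and 17% lower. Each of the 5 passed the minimum through si-FTO alone, so nothing is read from their count. The 5 higher genes were A2M-AS1, TPT1P12, PZP, LINC00987 and A2MP1, all with start sites between -51.1 kb and 159.6 kb of the A2M start site. A2M-AS1, a noncoding gene on the opposite strand that overlaps A2M, was listed at 0.229 TPM in si-NC against 2.03 TPM in si-FTO. The kit keeps strand, but whether the counting used it is not stated, so reads of A2M and A2M-AS1 may not be told apart. LINC00987 had 0.334 TPM in si-NC against 4.32 TPM in si-FTO. The pseudogene A2MP1 had 0.0250 TPM and 1.17 TPM, and shared 0% of its 50-base words with A2M transcripts. The processed pseudogene TPT1P12 was listed at 0 in si-NC and at 14.6 TPM in si-FTO.

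Farther from A2M on the other side, PHC1, a Polycomb protein gene whose start site lies at -202.3 kb, was lower, with 27.4 TPM in the si-NC mean and 3.75 TPM in the si-FTO mean. M6PR, the cation-dependent mannose 6-phosphate receptor, had 51.4 TPM in si-NC against 73.4 TPM in si-FTO, with a log2 ratio of 0.51. KLRG1 had 5.11 TPM and 3.10 TPM. RIMKLB had 19.3 TPM and 32.6 TPM. On the PZP side, the helicase pseudogenes DDX12B and DDX12P had 14.2 TPM and 17.98 TPM in si-NC against 9.56 TPM and 10.2 TPM in si-FTO. The processed pseudogene PTMAP4, which starts 124.1 kb from A2M and beside LINC00987, had 15.2 TPM in si-NC against 12.1 TPM in si-FTO. These pseudogenes can share reads with other copies, and their values are uncertain for that reason. The other 5 compared neighbours, all small nucleolar RNA genes or pseudogenes, were under 1 TPM in both groups.

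**Figure D2:**
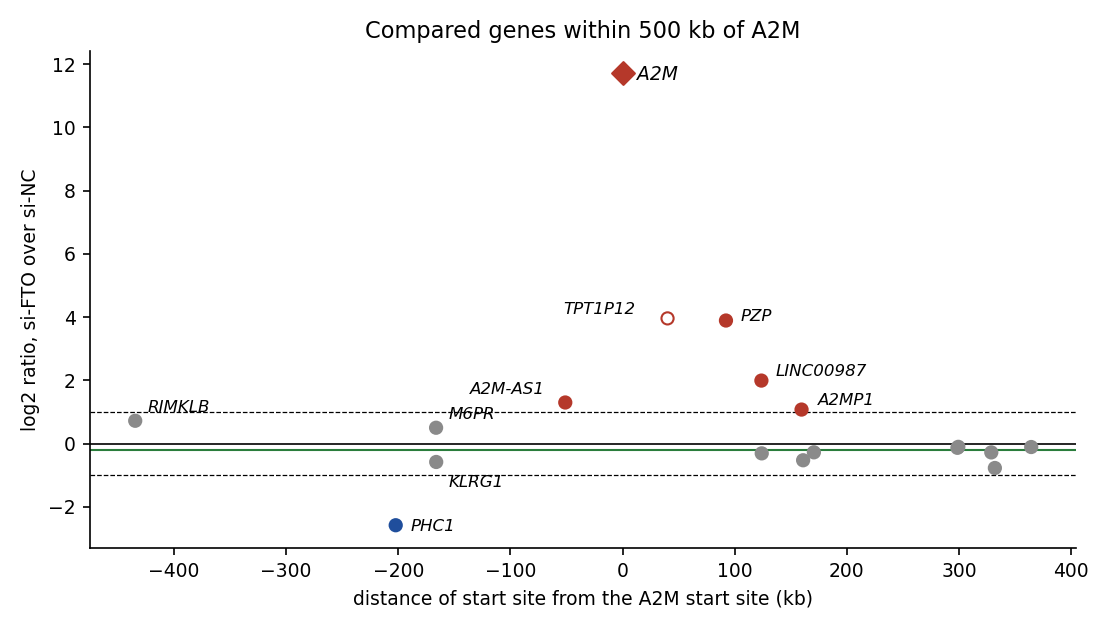
Log2 ratio of si-FTO over si-NC for the 17 compared genes within 500 kb of A2M, against the distance of each start site from that of A2M in kb, negative towards lower coordinates, with A2M as a diamond at 11.71. Red points are called higher, blue points lower and grey points neither, the open point is TPT1P12, listed at 0 in si-NC, dashed lines mark the thresholds and the green line the median of all compared genes.

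Between the plasminogen activators, the order of the levels differed between the groups. PLAT, the tissue-type activator, was listed at 86.4 TPM in the si-NC mean and 4.37 TPM in the si-FTO mean, so that the log2 ratio was -4.02 and the si-NC mean was 19.7 times the si-FTO mean. PLAU, the urokinase, was listed at 2.02 TPM in si-NC against 18.7 TPM in si-FTO, with a log2 ratio of 2.71. The sum of both activators was 88.4 TPM in si-NC against 23.1 TPM in si-FTO. PLAT made up 97.7% of that sum in si-NC and 18.9% in si-FTO, so PLAT was the more abundant activator transcript in si-NC and PLAU in si-FTO. By size of difference, PLAT held rank 213 among the compared genes ordered from the lowest log2 ratio, and PLAU rank 595 from the highest.

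PLAUR, the receptor that holds urokinase at the cell surface, was listed at 11.9 TPM in the si-NC mean and 33.4 TPM in the si-FTO mean. Its log2 ratio was 1.42, and the ratio of the means themselves was 2.81. PLAU and its receptor thus had their higher means in the same group, and the receptor was the more abundant transcript of the pair in both groups. PLAU lies on chr10:75668935-75677254 on the plus strand and PLAUR on chr19:44150247-44174699 on the minus strand of GRCh37.

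Since PLAU, PLAUR and TIMP1 were each called higher, the promoters of the 9 genes were looked up. The RefSeq table of GRCh38.p14 windows, each from 250 bases before to 50 bases after an annotated start, held 9 windows for 6 of the 9 genes, and A2M, PLAT and TIMP2 had no entry. Matches were sought on both strands to TGANTCA, the AP-1 motif, to TTCNNNGAA, a STAT-type motif, to GGGCGG, the GC box, and to TATAAA. The AP-1 motif occurs in 7.71% of all 35116 windows, the STAT-type motif in 7.66%, the GC box in 45% and TATAAA in 11.5%. Of the 9 windows, 1 held an AP-1 match, 5 a GC box, 0 the STAT-type motif and 0 TATAAA. A match is a description of the letters and not a site of binding. No window of these genes held matches to more than 1 of the motifs, so none overlapped. The window of PZP held no match and 1 CpG, against a median of 14 CpG over all windows.

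The AP-1 match was in PLAUR, from base 65 of the window chr19:43670120-43670419 on the minus strand. The downstream window of PLAU, chr10:73910882-73911181 on the plus strand, held 3 GC boxes and 28 CpG, and the upstream PLAU window, at chr10:73910360-73910659, held 0 matches and 5 CpG. The pair is shown as the promoters of a ligand and its receptor, with the matches in capitals.
PLAUR: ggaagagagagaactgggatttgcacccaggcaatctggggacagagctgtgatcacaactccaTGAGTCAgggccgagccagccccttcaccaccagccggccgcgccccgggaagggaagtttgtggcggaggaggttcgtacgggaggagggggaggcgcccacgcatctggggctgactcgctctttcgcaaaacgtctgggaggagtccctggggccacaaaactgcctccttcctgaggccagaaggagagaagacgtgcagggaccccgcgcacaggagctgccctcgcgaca
PLAU: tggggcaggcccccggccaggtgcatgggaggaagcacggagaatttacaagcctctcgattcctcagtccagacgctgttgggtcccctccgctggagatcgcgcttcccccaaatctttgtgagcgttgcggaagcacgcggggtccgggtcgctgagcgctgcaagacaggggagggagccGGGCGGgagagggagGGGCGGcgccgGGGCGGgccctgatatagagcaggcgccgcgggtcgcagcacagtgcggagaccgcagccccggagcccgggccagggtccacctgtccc

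Of 19 genes of plasminogen activation and its cell-surface partners, 15 were compared, 6 were called higher and 1 lower. Their median log2 ratio was 0.87, and 0.64 over the 14 genes listed above 0 in both groups. The called shares were 40% higher and 6.67% lower, against 11.4% and 17% of all compared genes. PLG, SERPINF2 and VTN passed the minimum through si-FTO alone. The 1 lower gene was PLAT. The counts were 8 higher and 2 lower at a pseudocount of 0.1, and 3 higher at a log2 threshold of 2. PLAU, PLAUR, PLAT and SERPINE2 are in this list and were chosen by these same means. Plasminogen itself, PLG, was listed at 0 in si-NC but at 0.826 TPM in si-FTO, so the zymogen was at most weakly expressed. ANXA2 and S100A10 form the annexin A2 heterotetramer, a surface receptor of plasminogen and PLAT. ANXA2 was listed at 170.2 TPM in si-NC against 1235 TPM in si-FTO, with a log2 ratio of 2.85. S100A10 was listed at 141 TPM and 412 TPM, a log2 ratio of 1.54. These receptor subunits therefore had higher means in the group in which PLAT was low.

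Other surface partners lay between the thresholds. ENO1, a glycolytic enzyme that also binds plasminogen at the surface, had 2905 TPM in si-NC against 3619 TPM in si-FTO, with a log2 ratio of 0.32. PLGRKT, a plasminogen receptor of the membrane, had 23.2 TPM and 12.2 TPM, a log2 ratio of -0.87. LRP1, which takes up A2M-protease and activator-inhibitor complexes, had 19.7 TPM in the si-NC mean and 15.9 TPM in the si-FTO mean. The level of A2M was 213.8 times that of LRP1 in si-FTO. LRPAP1, the chaperone of LRP1, had 39.0 TPM and 38.4 TPM. The clearance receptor and its chaperone thus had similar means in the groups, as far as means without error can show.

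VTN, vitronectin, an adhesive glycoprotein that binds PLAUR, was listed at 0.288 TPM in si-NC against 26.8 TPM in si-FTO, with a log2 ratio of 4.43. SERPINF2, the main inhibitor of plasmin, had 0.138 TPM and 2.41 TPM. Tissue factor, F3, had 4.28 TPM in si-NC against 9.28 TPM in si-FTO, with a log2 ratio of 0.96 just inside the threshold. F12, the contact factor, had 17.6 TPM and 8.37 TPM, just inside the lower threshold at -0.99. SERPINB2 was listed at 0 in both groups, and SERPINA5, CPB2 and KLKB1 were under 0.5 TPM in both.

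**Figure D3:**
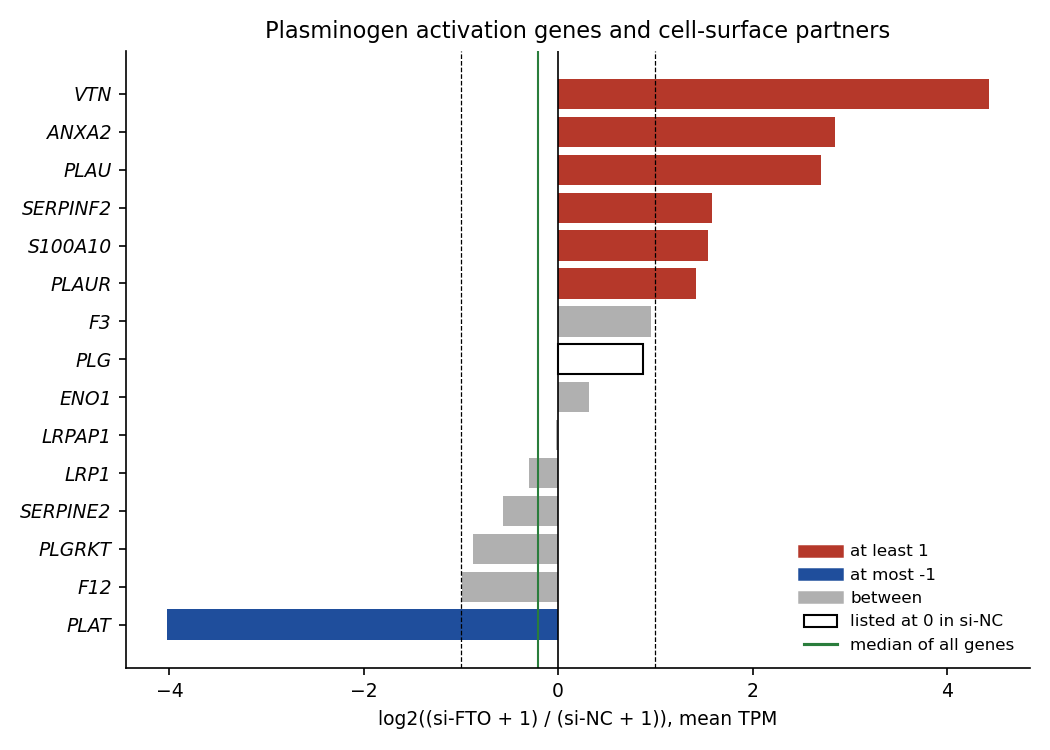
Log2 ratio of si-FTO over si-NC for the 15 compared genes of plasminogen activation and its cell-surface partners, ordered by value, with dashed lines at the thresholds and the median of all compared genes in green. PLAT at -4.02 is the lowest bar and the open bar, PLG, belongs to a gene listed at 0 in si-NC, whose bar length depends on the added 1.

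SERPINE2, protease nexin 1, an inhibitor of thrombin, urokinase and tissue activator, was listed at 29.3 TPM in the si-NC mean and 19.4 TPM in the si-FTO mean. Its log2 ratio of -0.57 lay between the thresholds. It lies on chr2:224839762-224904035 of GRCh37, on the minus strand. In si-NC its level lay between those of PLAU and PLAT, and in si-FTO it was close to that of PLAU.

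SERPINA1, alpha-1 antitrypsin, the main circulating inhibitor of neutrophil elastase, was listed at 0.0119 TPM in si-NC and at 0 in si-FTO, and no ratio is given. It lies on chr14:94843084-94857030 of GRCh37. A2M and SERPINA1 are both abundant liver products, and in si-FTO they stood at opposite ends of the scale. SERPINA3, a further plasma inhibitor of this clade, was listed at 0 in both groups.

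Of 35 serpin genes, 11 were compared, 5 were called higher and 2 lower, and 17 were listed at 0 in both groups. Their median log2 ratio was 0.92, and also 0.92 over the 9 listed above 0 in both groups. The called shares were 45.5% higher and 18.2% lower, against 11.4% and 17% of all compared genes, so the lower share was near that of all genes. Of the called serpins, AGT and SERPINF2 passed the minimum through si-FTO alone and SERPINB9 through si-NC alone. SERPINB6, an intracellular inhibitor, was the most abundant serpin in si-FTO, with 69.8 TPM in si-NC against 281 TPM in si-FTO. SERPINB1, an inhibitor of neutrophil proteases, had 11.6 TPM and 85.1 TPM, a log2 ratio of 2.77. SERPINH1, a collagen chaperone without inhibitory activity, had 48.9 TPM and 107 TPM. SERPINF1, pigment epithelium-derived factor, also without inhibitory activity, was the most abundant serpin in si-NC, with 122 TPM there and 10.5 TPM in si-FTO, and a log2 ratio of -3.42. The other serpin called lower, SERPINB9, an inhibitor of granzyme B, had 3.27 TPM in si-NC and was listed at 0 in si-FTO. The most abundant serpin transcript of each group thus differed.

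TIMP1 and TIMP2 differed by nearly the same ratio. TIMP1 was listed at 138 TPM in the si-NC mean and 507 TPM in the si-FTO mean, so that the log2 ratio was 1.87 and the ratio of the means themselves 3.69. TIMP2 was listed at 28.1 TPM in si-NC against 102 TPM in si-FTO, with a log2 ratio of 1.83 and a ratio of the means themselves of 3.64. The genes lie on different chromosomes, TIMP1 on chrX:47441807-47446188 and TIMP2 on chr17:76849059-76921469 of GRCh37. TIMP1 was the only one of the 9 genes above 100 TPM in si-NC, while A2M, TIMP1 and TIMP2 were above it in si-FTO.

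The promoter window of TIMP1, chrX:47582186-47582485 of GRCh38.p14 on the plus strand, is shown because it belongs to the most abundant inhibitor of the TIMP family. It held 2 GC boxes, in capitals as their reverse complement, 16 CpG and 0 matches to the other motifs.
TIMP1: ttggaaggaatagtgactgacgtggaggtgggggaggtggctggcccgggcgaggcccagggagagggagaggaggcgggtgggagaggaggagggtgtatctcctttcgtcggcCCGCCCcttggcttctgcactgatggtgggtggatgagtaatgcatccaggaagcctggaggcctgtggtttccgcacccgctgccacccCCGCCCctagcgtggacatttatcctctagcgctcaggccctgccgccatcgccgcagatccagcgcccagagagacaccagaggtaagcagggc

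Of the TIMPs and RECK, a membrane-bound inhibitor, all 5 were compared, 3 were called higher and 0 lower, with a median log2 ratio of 1.83. The 3 include TIMP1 and TIMP2, which were chosen by these same means, and TIMP4, which passed the minimum through si-FTO alone. They are 60% of the list, against 11.4% of all compared genes, and nothing is read from this count. TIMP4 was listed at 0.0184 TPM in si-NC against 10.3 TPM in si-FTO, with a log2 ratio of 3.47. TIMP3, which binds the extracellular matrix, had 29.6 TPM and 19.7 TPM, a log2 ratio of -0.56. RECK had 5.76 TPM in the si-NC mean and 3.25 TPM in the si-FTO mean. The sum of TIMP1 to TIMP4 was 195 TPM in si-NC against 639.6 TPM in si-FTO, of which TIMP1 made up 70.5% and 79.3%.

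**Figure D4:**
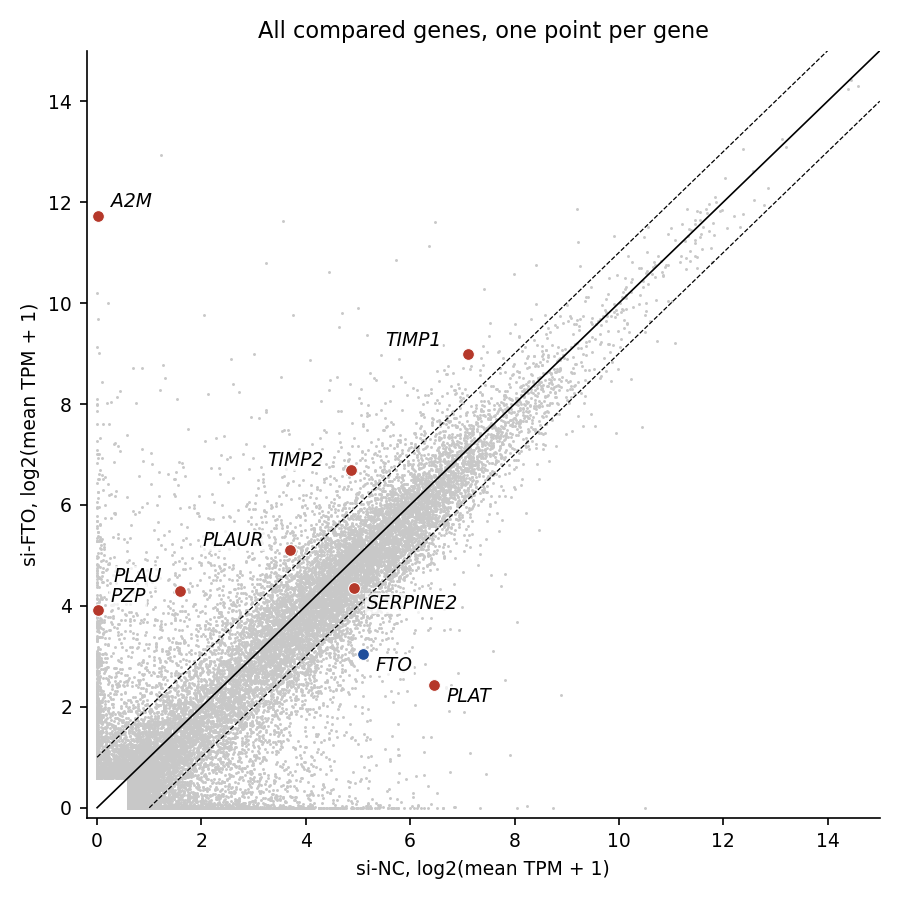
Mean TPM of the 20493 compared genes in si-NC and si-FTO, both as log2(mean TPM + 1), with 1 grey point for each gene, the 8 compared genes of the group in red, FTO in blue, equality as a solid line and the thresholds as dashed lines. A2M lies at the upper left, TIMP1, TIMP2, PLAUR, PLAU and PZP above the upper dashed line, and PLAT and FTO below the lower one.

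Of the proteases that TIMPs inhibit, only the matrix metalloproteinases were described as a list here. Of 23 matrix metalloproteinase genes, 11 were compared, 3 were called higher and 4 lower, with a median log2 ratio of -0.46. Their summed level was 36.1 TPM in si-NC against 34.6 TPM in si-FTO. The called shares were 27.3% higher and 36.4% lower, against 11.4% and 17% of all compared genes. MMP24, a membrane-type enzyme, was listed at 0.215 TPM in the si-NC mean and 11.5 TPM in the si-FTO mean, where it led the list. Also called higher were MMP7, listed at 0 in si-NC and at 2.90 TPM in si-FTO, and MMP9, at 0.0432 TPM and 1.10 TPM. These 3 passed the minimum through si-FTO alone, and MMP2, MMP14 and MMP16 through si-NC alone. In si-NC the most abundant was MMP15, at 8.77 TPM there and 11.4 TPM in si-FTO. Among the lower ones, MMP2, gelatinase A, had 7.21 TPM in si-NC against 0.0305 TPM in si-FTO. MMP17 had 7.27 TPM and 1.56 TPM, MMP16 had 2.04 TPM and a listed value of 0, and MMP14, the activator of MMP2 on the cell surface, had 1.57 TPM and 0.138 TPM. The summed TIMP level thus exceeded the summed matrix metalloproteinase level in both groups.

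Inhibitors outside these families were described as a list of Kunitz, Kazal, WAP and cystatin genes. Of 35, 18 were compared, 8 were called higher and 2 lower, with a median log2 ratio of 0.91, and 1.05 over the 14 listed above 0 in both groups. The called shares were 44.4% higher and 11.1% lower, against 11.4% and 17% of all compared genes. Of the called genes, SLPI, SPINK4, WFDC1, WFDC3 and PI3 passed the minimum through si-FTO alone and SPINK2 through si-NC alone. SLPI, the secretory leukocyte protease inhibitor of mucosal surfaces, was listed at 0.0729 TPM in si-NC against 345 TPM in si-FTO, with a log2 ratio of 8.33. SPINK4, a Kazal-type gene of intestinal goblet cells, had 0.355 TPM and 303 TPM, a log2 ratio of 7.81. WFDC1 had 0.0348 TPM in the si-NC mean and 47.9 TPM in the si-FTO mean. PI3, the elastase inhibitor elafin, was listed at 0 in si-NC but at 14.3 TPM in si-FTO. Like A2M, SLPI and SPINK4 were under 0.5 TPM in si-NC and abundant in si-FTO.

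The Kunitz inhibitors moved in different directions. TFPI, which inhibits the tissue factor complex, was listed at 4.87 TPM in si-NC against 53.5 TPM in si-FTO, with a log2 ratio of 3.21. TFPI2, which inhibits plasmin, had 1.09 TPM and 14.4 TPM, a log2 ratio of 2.88. SPINT2, an inhibitor of the activator of hepatocyte growth factor and of matriptase, was lower, with 38.2 TPM in si-NC against 7.99 TPM in si-FTO and a log2 ratio of -2.13. The other gene called lower was SPINK2, which had 3.59 TPM in si-NC and a listed value of 0 in si-FTO.

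Widely expressed inhibitors of the same list differed little. APLP2 had 337 TPM in the si-NC mean and 269 TPM in the si-FTO mean, and APP, which like it carries a Kunitz domain in some isoforms, had 232 TPM and 304 TPM. The cystatin CST3 had 147 TPM in si-NC against 168 TPM in si-FTO. CSTB had 135 TPM and 172 TPM. CAST, the calpain inhibitor, was the abundant exception, with 75.8 TPM and 176 TPM, a log2 ratio of 1.20.

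Among 37 kallikreins and membrane or secreted serine proteases, 16 were compared, 7 were called higher and 5 lower, and the median log2 ratio was 0.14. Their summed level was 60.01 TPM in si-NC against 607 TPM in si-FTO. The called shares were 43.8% higher and 31.2% lower, against 11.4% and 17% of all compared genes. Of the called genes, ST14, HPN, TMPRSS3, PRSS8 and PRSS21 passed the minimum through si-FTO alone. KLK7, KLK8, KLK14 and PRSS12 passed it through si-NC alone. PRSS21, testisin, a glycolipid-anchored protease, was listed at 0 in si-NC but at 233 TPM in si-FTO. PRSS23 had 8.46 TPM and 228 TPM, a log2 ratio of 4.60. ST14, matriptase, an epithelial protease that can activate urokinase, was listed at 0.0376 TPM in the si-NC mean and 39.3 TPM in the si-FTO mean, so that the log2 ratio was 5.28. TMPRSS3 was listed at 0 in si-NC but at 29.7 TPM in si-FTO. HTRA1 had 9.81 TPM and 65.0 TPM. KLK8, neuropsin, the list's leading gene in si-NC, had 11.9 TPM there and 0.174 TPM in si-FTO, and a log2 ratio of -3.46. PRSS12, at 9.63 TPM and 0.150 TPM, and HTRA3, a relative of HTRA1, at 6.66 TPM and 0.609 TPM, were also called lower. Of the inhibitors of matriptase in the lists, SPINT2 was called lower, and SPINT1 lay between the thresholds at 1.89 TPM and 1.67 TPM.

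A2M is known as an acute phase gene of the IL6 and STAT3 pathway in the rat, and the pathway was described as a list. Of 33 genes, A2M and SERPINA1 included, 20 were compared, 12 were called higher and 0 lower, with a median log2 ratio of 1.63, and 1.39 over the 19 listed above 0 in both groups. The share called higher was 60%, against 11.4% of all compared genes, of which 17% were called lower. Of the genes called higher, A2M, IL6, SAA1 and LCN2 passed the minimum through si-FTO alone, and A2M was chosen by these same means. The part of this pathway in the difference of A2M was not tested. STAT3 was listed at 31.8 TPM in si-NC against 118 TPM in si-FTO, with a log2 ratio of 1.86. SOCS3, a feedback inhibitor induced by STAT3, had 1.08 TPM and 112 TPM, a log2 ratio of 5.76. The oncostatin M receptor OSMR had 0.807 TPM in si-NC against 60.9 TPM in si-FTO, with a log2 ratio of 5.10. LIFR had 8.08 TPM and 42.5 TPM, and the cytokine LIF 0.933 TPM and 11.8 TPM. IL6R had 3.68 TPM in the si-NC mean and 10.3 TPM in the si-FTO mean, so that the log2 ratio was 1.27, while IL6ST, the signal-transducing chain these receptors share, lay between the thresholds at 14.0 TPM and 19.0 TPM. The lowest log2 ratio of the list, -0.91, was that of the receptor IL11RA, at 16.1 TPM and 8.15 TPM. With 0.1 as the pseudocount the list had 1 gene called lower. That gene was HPX, at 0.563 TPM and 0.0407 TPM, and not IL11RA. The transcription factor CEBPB had 21.9 TPM and 108 TPM, and CEBPD had 4.01 TPM and 30.5 TPM.

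The acute phase genes themselves did not move as 1 group. CRP, LBP, ORM1, ORM2 and SERPINA3 were listed at 0 in both groups, as was the cytokine gene OSM. SAA1 was listed at 0.0236 TPM in si-NC against 4.77 TPM in si-FTO. LCN2 was listed at 0 in si-NC but at 9.31 TPM in si-FTO. The kinases JAK1, JAK2 and TYK2 lay between the thresholds, with log2 ratios of 0.82, 0.05 and -0.20. TYK2, at 79.8 TPM, led the list in si-NC.

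Because A2M and SERPINA1 are liver products, hepatocyte markers were given beside them. Of 24 markers, 5 were compared, 2 were called higher and 0 lower, and 19 were under 0.5 TPM in both groups. Their median log2 ratio was 0.92, and 2.57 over the 4 listed above 0 in both groups. The share called higher was 40%, against 11.4% of all compared genes, of which 17% were called lower. VTN, 1 of the 2 called, passed the minimum through si-FTO alone. ALB, the defining product of hepatocytes, had 0.0193 TPM in si-NC against 0.0487 TPM in si-FTO. APOH, APOC3, ITIH1 and F9 were listed at 0 in both groups, and TTR, APOA1, FGA and FGB at 0 in si-FTO. The summed level was 25.7 TPM in the si-NC mean and 1593 TPM in the si-FTO mean. CPS1, a urea cycle enzyme that intestinal cells also express, made up most of it in each group, with 20.8 TPM and 1558 TPM, a log2 ratio of 6.16. The remaining called marker was VTN, at 26.8 TPM in si-FTO. Of the other secreted products, ITIH4 had 3.48 TPM and 6.28 TPM, and AMBP was listed at 0 in si-NC but at 0.887 TPM in si-FTO. HPX, hemopexin, went the other way between the thresholds, at 0.563 TPM and 0.0407 TPM. At a pseudocount of 0.1, 3 markers were called higher and 1 lower. The part of these markers in the difference of A2M was not tested.

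Most of the compared general epithelial markers had higher means in si-FTO, as A2M, SLPI and ST14 had. Of 14 such markers, 10 were compared, 8 were called higher and 1 lower, with a median log2 ratio of 3.22, and 2.86 over the 9 listed above 0 in both groups. Their summed level was 71.2 TPM in si-NC against 5389 TPM in si-FTO. The called shares were 80% higher and 10% lower, against 11.4% and 17% of all compared genes. KRT7, ELF3, CLDN3 and CLDN4 passed the minimum through si-FTO alone and EPCAM through si-NC alone, so nothing is read from this count or median. KRT8 was the most abundant in si-FTO, with 10.8 TPM in si-NC against 3139 TPM in si-FTO and a log2 ratio of 8.06. KRT18, the partner keratin of KRT8, was the most abundant in si-NC, with 52.1 TPM there and 1851 TPM in si-FTO. KRT7 was listed at 0 in si-NC but at 253 TPM in si-FTO. The epithelial transcription factor ELF3 had 0.115 TPM and 93.3 TPM. MUC1 had 1.71 TPM in the si-NC mean and 31.0 TPM in the si-FTO mean, and CLDN7 had 1.17 TPM and 14.8 TPM.

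The adhesion genes CDH1 and EPCAM had lower means in si-FTO, at low levels. CDH1, E-cadherin, was the 1 marker called lower, with 3.67 TPM in si-NC against 0.685 TPM in si-FTO and a log2 ratio of -1.47. EPCAM had 1.22 TPM and 0.113 TPM, a log2 ratio of -0.99 just short of the threshold. The count of lower markers was 2 at a pseudocount of 0.1, and 0 with a minimum of 5 TPM or a log2 threshold of 2. KRT19 and KRT20 were under 0.5 TPM in both groups. The part of these epithelial differences in those of A2M and the other genes was not tested.

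Markers of further cell types were mostly near 0. Of 11 fibroblast markers, 7 were compared, 3 were called higher and 2 lower, with a median log2 ratio of 0.69 and summed levels of 17.3 TPM in si-NC against 46.9 TPM in si-FTO. COL1A1 was the most abundant in each group, at 10.3 TPM and 36.4 TPM, while COL1A2 was listed at 0.00982 TPM in si-NC and at 0 in si-FTO. After quantile normalization 0 fibroblast markers were called lower, and 1 after median-ratio scaling. The called shares of the main setting were 42.9% higher and 28.6% lower, against 11.4% and 17% of all compared genes. PDGFRB and FAP, called higher, passed the minimum through si-FTO alone, and COL3A1 and PDGFRA, called lower, through si-NC alone. Of 10 endothelial markers, 9 were found and 3 were compared, with 2 called higher and 0 lower, a median log2 ratio of 2.03, and summed levels of 2.38 TPM and 46.5 TPM. CDH5 made up most of the latter, with 0.00827 TPM in the si-NC mean and 40.9 TPM in the si-FTO mean, whereas KDR and TIE1 were listed at 0 in si-FTO and EMCN in both groups. In si-NC the most abundant endothelial marker was ESAM, at 1.65 TPM. The 2 endothelial markers called higher, CDH5 and ERG, passed the minimum through si-FTO alone. The median of 2.03 is the value of ERG, at 0.0226 TPM in si-NC against 3.18 TPM in si-FTO. The share called higher was 66.7%, against 11.4% of all compared genes, and nothing is read from this count or median.

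Of 9 leukocyte markers, 2 were compared, 1 was called higher and 0 lower, with a median log2 ratio of 0.59 and summed levels of 2.28 TPM in si-NC against 7.29 TPM in si-FTO. PTPRC, which marks leukocytes in general, and CD163 were listed at 0 in both groups. CD68, a lysosomal protein gene, was the most abundant in each group, with 1.49 TPM in si-NC against 6.42 TPM in si-FTO. At a pseudocount of 0.1, 1 marker was called higher and 1 lower. The 1 higher marker of the main setting was 50% of those compared, against 11.4% of all compared genes, and nothing is read from this count.

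**Figure D5:**
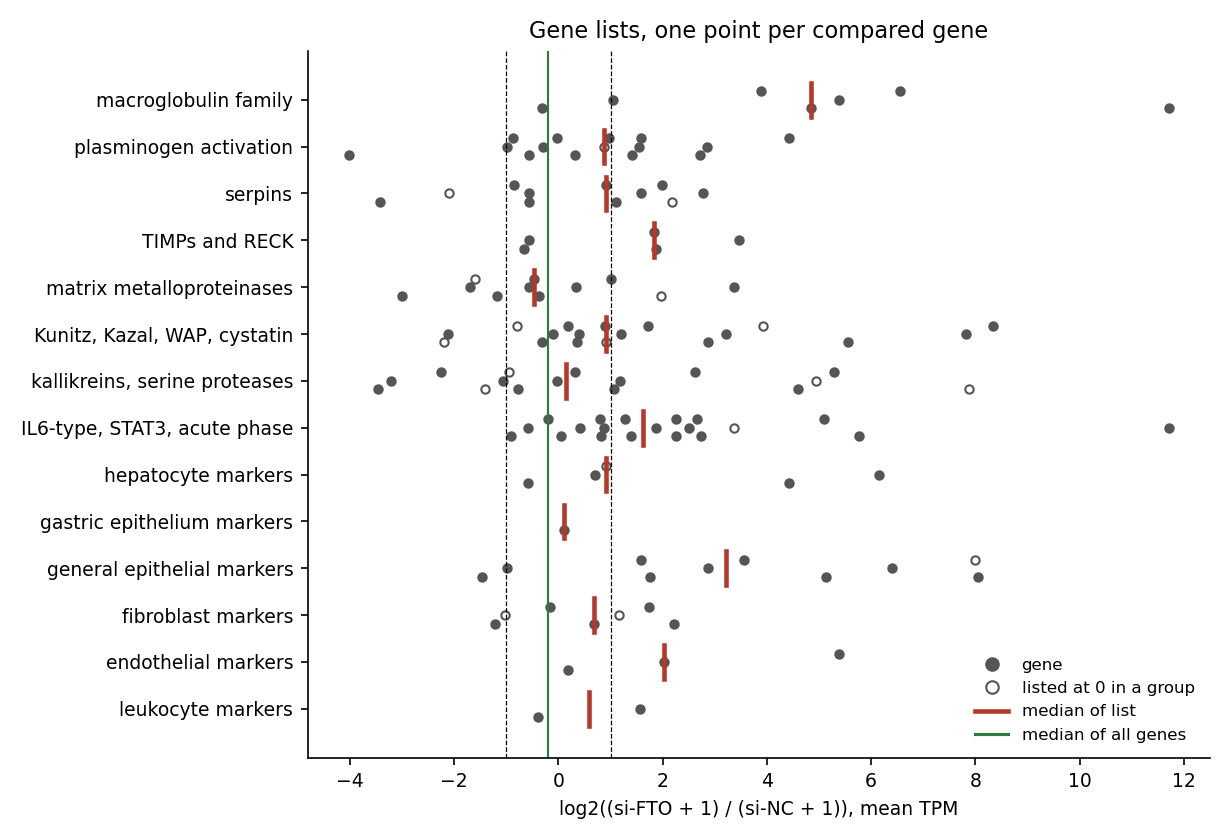
Log2 ratio of si-FTO over si-NC for the compared genes of the 14 gene lists, with 1 point for each gene, open where the gene is listed at 0 in a group, a red bar for the median of each list, a green line for the median of all compared genes at -0.20 and dashed lines at the thresholds. The medians run from -0.46 for the matrix metalloproteinases to 4.85 for the macroglobulin family, and A2M is the rightmost point of both lists that hold it.

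The genes with means most like those of A2M were ranked by distance on the log2(mean TPM + 1) scale over the 2 groups. The 5 nearest were ALPI, H19, S100A6, ALPP and TM4SF1, at distances of 1.53, 1.70, 1.74, 2.05 and 2.60. ALPI, an intestinal alkaline phosphatase, was listed at 0 in si-NC but at 1178 TPM in si-FTO, and its placental relative ALPP at 0.0147 TPM and 819 TPM. These phosphatases are close paralogs whose reads can be divided between them. The imprinted noncoding gene H19 had 1.34 TPM in the si-NC mean and 7791 TPM in the si-FTO mean. S100A6 had 0.154 TPM and 1021 TPM, and TM4SF1, a membrane protein gene, was listed at 0 in si-NC but at 558 TPM in si-FTO. The nearest gene was thus still 1.53 log2 units away.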

How the data were processed

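RNA of 6 AGS libraries, 3 si-NC and 3 si-FTO, was sequenced after preparation with a stranded kit. The deposited values are TPM, averaged by the authors over each group, for 58174 genes. The paper names Bowtie, RSEM and hg19, and the submitters' processing notes name HISAT2 and hg19. The annotation is not given in the sources used here. The log2 fold change, p-value and q-value columns of the authors, and a second table of selected genes, were not used.

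A value of 0.0001 TPM was read as 0. Log2 ratios were computed with a pseudocount of 1 for genes with a mean of at least 0.5 TPM in at least 1 group, and called at 1 in size. Symbols matched 55726 of 58174 identifiers. An older symbol was replaced for 1 marker, and PECAM1 was not found. The members and the 14 gene lists were chosen with earlier results of these data known. From the lists, 2 genes are not reported here, and the counts leave them out.

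Named were the 9 members and FTO. Of each list, named were genes of at least 100 TPM in a group and up to 4 called genes per direction with the largest log2 ratio among those of at least 10 TPM, and for marker lists the most abundant gene of each group and defining markers at 0. Added were the 5 genes nearest to A2M and compared genes within 500 kb of it. Other genes were named after their values were seen.

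Coordinates and transcripts come from GENCODE on GRCh37, promoter windows from RefSeq on GRCh38.p14. Python 3.11.15, pandas 2.3.3 and numpy 2.4.6 were used, and the calculations were tested on simulated data.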

Additional observations from a re-analysis of the deposited data

How the results depend on the processing

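No paired analysis was possible because each deposited column averages a whole group, and for the same reason leaving out each library and the replicate block in limma were not run. Run were 7 alternatives: no filter on low values, a minimum of 5 TPM, 0.1 as the pseudocount, median-ratio scaling, quantile normalization, a log2 threshold of 2, and 0.0001 kept as a value with no pseudocount. The log2 ratio of A2M ranged from 11.70 to 17.94 over them and the main value, that of PZP from 3.90 to 9.79, that of PLAT from -4.30 to -3.89, that of PLAUR from 1.42 to 1.54, and that of SERPINE2 from -0.60 to -0.45. At a threshold of 2, 976 genes were called higher and 1241 lower, in place of 2340 and 3492, and 3 members were called higher in place of 6, since PLAUR, TIMP1 and TIMP2 lie between 1 and 2. With a minimum of 5 TPM, 2254 genes were called lower, as fewer were compared. With 0.0001 kept and no pseudocount, 5348 were called lower. None of the 8 compared members changed direction under the alternatives run, and SERPINA1 was given no ratio. A change of filter, threshold or pseudocount cannot reverse a member, so only quantile normalization and median-ratio scaling could have done so. Of 196 counts of calls in the gene lists, 164 stayed within 1.5 times the main count. The 164 include every count made with no filter, which at a pseudocount of 1 cannot differ from the main count. Median-ratio scaling, over 8150 genes, shifted log2 ratios without a pseudocount by 0.13.

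TPM keeps no depth, so how well the means near 0 are known, such as those of A2M, PZP and SERPINA1 in si-NC, cannot be given. The spread between libraries cannot be taken from the means, and a mean can rest on 1 library of 3.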
